A study of Schizosaccharomyces pombe with 4 samples.

Results

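Tf2 elements are the full-length LTR retrotransposons of the fission yeast *Schizosaccharomyces pombe*, and 10 of the 4857 gene names on a spotted ORF array belong to them. The members are all probes whose gene name begins with tf2- in either letter case, which gives *tf2-1*, *tf2-2*, *tf2-3*, *tf2-5*, *tf2-6*, *tf2-7*, *tf2-8*, *tf2-10*, *Tf2-11* and *tf2-12*. Gene names were read by grid position from the layout of the first *sim3-143* array. The family was chosen by measured values, because Tf2 probes had been seen to be high in both sim3 mutants on these same arrays. Ratios of mutant over wild-type are therefore given below as a description with no test, and only the difference between the alleles and the effect of the dye were tested.

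A Tf2 element carries a long terminal repeat at each end and 1 open reading frame for Gag, the structural protein of the particle, and for the protease, reverse transcriptase and integrase that copy the RNA into DNA and insert it. The copies of the family are very similar in sequence, so cDNA from one copy can bind the probe of another. The probes are thus not separate genes in what they measure, and they are not replicates of each other. Transcription of Tf2 is known to be held low by CENP-B-like proteins, by the HIRA histone chaperone and by histone deacetylases, and to be raised in low oxygen by the transcription factor Sre1. All 10 probes matched a Tf2 gene in the RefSeq gene table, where *tf2-7* and *tf2-8* are neighbouring genes.

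The samples were cells with the *sim3-205* allele, cells with the *sim3-143* allele and wild-type controls, all from logarithmically growing cultures. Sim3 is a histone-binding protein related to the chaperone NASP and is needed for deposition of the centromeric histone H3 variant CENP-A, and both alleles are missense mutations. Each allele was hybridized against wild-type cDNA on 2 arrays. Replicate 1 of each allele had the mutant in Cy3 and replicate 2 had it in Cy5, and every probe was printed in 2 spots. The *sim3-205* replicate 2 array was deposited under a different array platform and slide label from the other arrays. The gene names on it matched those of *sim3-143* replicate 1 at 11518 of 11520 positions. Within *sim3-205* the dye orientation and the platform cannot be told apart. It is not stated whether the 2 arrays of an allele came from 1 RNA preparation, or whether 1 wild-type RNA served both alleles. The study lists genotypes of its strains but does not state which of them were used for these arrays. The growth temperature of these cultures is not given in the sources used here. Values of n count arrays, and the tests measure only the spread between these arrays.

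The arrays differed in quality. The gene names in the scanner files of *sim3-205* replicate 1 and *sim3-143* replicate 2 did not follow the printed spots: only 60 of 11520 positions carried the name found there on *sim3-143* replicate 1. By the layout, empty and buffer spots were dim on these arrays, with summed dyes at a median of 264 and 354, and the remaining spots at 2949.5 and 4794. Names by position were therefore used throughout. On *sim3-205* replicate 1 the dyes were unrelated in 3 of 32 grids, which are the blocks of spots laid down by one pin. In grid 29, which holds *tf2-6* and *tf2-8*, Spearman's rho between the dyes was -0.19. Across genes, the SD of the log2 ratio was 0.66 on *sim3-205* replicate 1, 0.38 on *sim3-205* replicate 2, 0.31 on *sim3-143* replicate 1 and 0.50 on *sim3-143* replicate 2. Of the 80 Tf2 spots, 76 had both dyes above 2 times their local background. The 4 that did not were the spots of *tf2-6* and *tf2-8* on *sim3-205* replicate 1, and 0 Tf2 spots were saturated.

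The scanner intensities of *tf2-5* show the pattern of most copies. As the mean of 2 spots, before any correction, the mutant gave 8370 and 11780.5 on the *sim3-205* arrays, against 2810.75 and 4482 for wild-type. On the *sim3-143* arrays it gave 26710.5 and 25874, against 7822.5 and 7737.5 for wild-type. The mutant channel was the brighter one on all 4 arrays, whichever dye it carried.

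**Figure D1:**
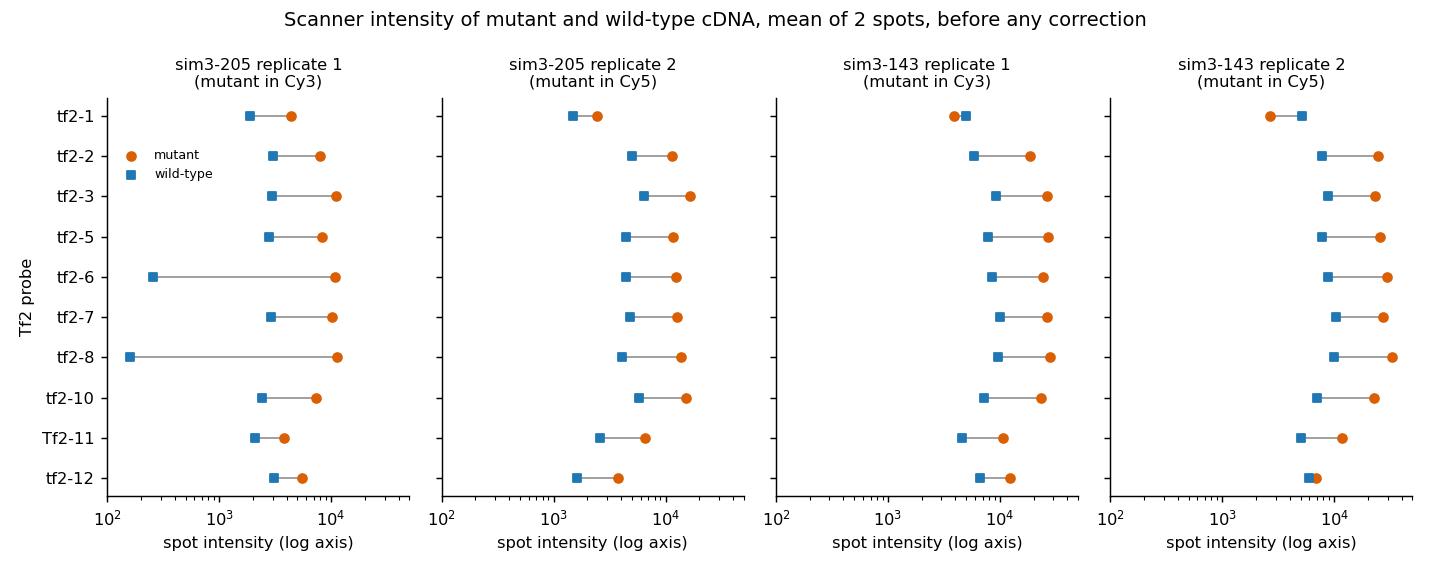
Scanner intensity of mutant (orange circles) and wild-type cDNA (blue squares) at each Tf2 probe, as the mean of 2 spots on a log axis, with 1 panel per array. The mutant lies to the right for every probe on the *sim3-205* arrays and for all but *tf2-1* on the *sim3-143* arrays. Wild-type intensity at *tf2-6* and *tf2-8* on *sim3-205* replicate 1 stands apart at 255.5 and 159.

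After background correction and dye normalization, the log2 ratio of *tf2-5* was 0.81 and 1.25 on the *sim3-205* arrays and 1.93 and 2.24 on the *sim3-143* arrays. Its mean was 1.03 ± 0.31 in *sim3-205* (SD, n = 2) and 2.09 ± 0.22 in *sim3-143* (SD, n = 2), which is 2.04-fold over wild-type in *sim3-205* and 4.25-fold in *sim3-143*. The 2 spots of this probe differed by at most 0.28 on any array. All 4 data points of each allele were above 1.5-fold.

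The copies *tf2-10* and *tf2-2* followed *tf2-5* closely. The log2 ratio of *tf2-10* was 0.81 and 1.25 on the *sim3-205* arrays, and 1.86 and 2.19 on the *sim3-143* arrays. That of *tf2-2* was 0.63 and 1.05 on the *sim3-205* arrays, and 1.79 and 2.16 on the *sim3-143* arrays. For *tf2-5*, *tf2-10* and *tf2-2* the ratios of the *sim3-205* arrays lay wholly below those of the *sim3-143* arrays. The share of all genes separated in this way was not counted. With 2 arrays per allele, and probes that share sequence, nothing is read from it. The 2 replicates of an allele were ordered alike for these copies, replicate 2 above replicate 1 in each allele.

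In *tf2-3* and *tf2-7* the alleles were closer. The ratio of *tf2-3* was 1.11 and 1.23 on the *sim3-205* arrays, and 1.67 and 1.90 on the *sim3-143* arrays. That of *tf2-7* was 1.04 and 1.26 on the *sim3-205* arrays, and 1.54 and 1.89 on the *sim3-143* arrays. The groups again did not overlap, from which nothing is read either. In *sim3-205*, *tf2-3* had the smallest SD of the copies past 1.5-fold, 0.08, around a mean of 1.17.

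Copies *tf2-6* and *tf2-8* were like the others on 3 arrays and unlike them on *sim3-205* replicate 1. For *tf2-6* the ratio was 3.11 and 1.35 on the *sim3-205* arrays, and 1.67 and 2.25 on the *sim3-143* arrays. For *tf2-8* it was 3.24 and 1.59 on the *sim3-205* arrays, and 1.69 and 2.20 on the *sim3-143* arrays. Both were printed in grid 29, where the dyes of *sim3-205* replicate 1 were unrelated. There the wild-type spots of *tf2-6* read 256 and 255 over local backgrounds of 167 and 163.5. Those of *tf2-8* read 157 and 161, below their local backgrounds of 191 and 182. The mutant spots of *tf2-8* in the same places read 11425 and 11033. Wild-type *tf2-8* was thus not above background there, and its *sim3-205* ratio was measured on 1 array of 2, replicate 2, at 1.59. With that grid set aside, the ratio of *tf2-6* in *sim3-205* likewise rests on replicate 2 alone, at 1.35.

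**Figure D2:**
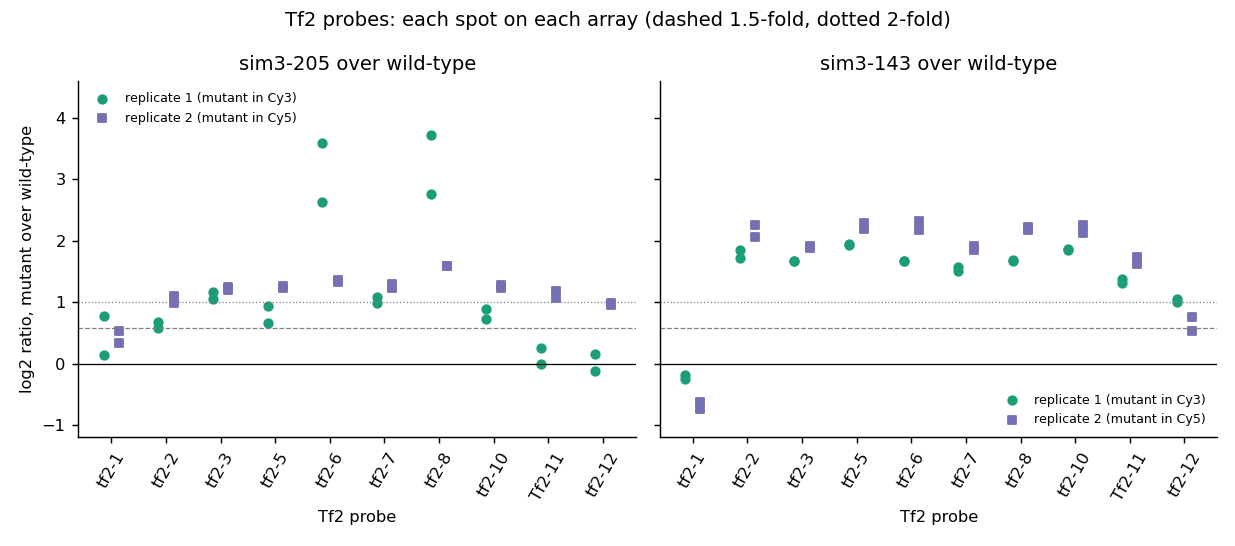
Log2 ratio of mutant over wild-type for each Tf2 probe (horizontal axis), with 1 point per spot, *sim3-205* on the left and *sim3-143* on the right. Circles are arrays with the mutant in Cy3 and squares those with it in Cy5. Most copies sit near 1 in *sim3-205* and near 2 in *sim3-143*, the highest points are *tf2-6* and *tf2-8* on *sim3-205* replicate 1, and *tf2-1* is the copy below 0 in *sim3-143*.

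*Tf2-11* and *tf2-12* gave lower ratios. *Tf2-11* stood at 0.12 and 1.13 on the *sim3-205* arrays, and at 1.34 and 1.68 on the *sim3-143* arrays. In *sim3-205* it was near wild-type on one array and past 2-fold on the other, with a mean of 0.62 ± 0.71 (SD, n = 2). *tf2-12* stood at 0.02 and 0.97 on the *sim3-205* arrays, and at 1.02 and 0.64 on the *sim3-143* arrays, so the ranges of its alleles overlapped. Its means were 0.49 ± 0.68 in *sim3-205* and 0.83 ± 0.27 in *sim3-143* (SD, n = 2 each). On *sim3-143* replicate 2 the mutant spots of *tf2-12* read 6589 and 7180, against 6191 and 5724 for wild-type, before the correction for the dyes.

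The copy *tf2-1* had the lowest mean ratio of the family in both alleles. Its mutant intensity was 4392.5 and 2443.5 on the *sim3-205* arrays, against 1878.75 and 1485.5 for wild-type. On the *sim3-143* arrays it was 3900.5 and 2685.5, against 4936.5 and 5195 for wild-type. The normalized log2 ratio was 0.46 and 0.43 on the *sim3-205* arrays, and -0.22 and -0.68 on the *sim3-143* arrays. The means were 0.44 ± 0.02 in *sim3-205* and -0.45 ± 0.32 in *sim3-143* (SD, n = 2 each), which is 1.36-fold over wild-type in *sim3-205* and 0.732-fold in *sim3-143*. All 4 data points were above 0 in *sim3-205*, and all 4 were below 0 in *sim3-143*.

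Set against the median of the other 9 copies on the same array, the log2 ratio of *tf2-1* differed by -0.36 and -0.82 on the *sim3-205* arrays. It differed by -1.90 and -2.84 on the *sim3-143* arrays. In *sim3-143* the lowest other copy was *tf2-12*, at 1.02 and 0.64, so *tf2-1* lay outside the range of the others on both arrays. In *sim3-205* it lay below all others on replicate 2, where the next lowest was 0.97, but above *Tf2-11* and *tf2-12* on replicate 1. Without *tf2-1*, the SD of the ratio across copies was 1.18 and 0.18 on the *sim3-205* arrays, against 0.28 and 0.51 on the *sim3-143* arrays. The first of these is set by *tf2-6* and *tf2-8* in grid 29: the other 7 copies ran from 0.02 to 1.11 on that array, with an SD of 0.43. With *tf2-1* included it was 1.13 and 0.30 on the *sim3-205* arrays, and 0.64 and 0.95 on the *sim3-143* arrays.

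By the rule that heads the study's gene lists, a gene counts as higher when at least 3 of its 4 data points pass a fold. The study used its own normalized ratios, and the rule is applied here to the ratios given above. Past 1.5-fold, 7 of 10 Tf2 probes counted in *sim3-205*, where the rule took in 2.6% of all genes, and 9 of 10 in *sim3-143*, where it took in 2.09%. The count in *sim3-205* was 4 of 10 with print-tip loess. Past 2-fold the counts were 4 of 10 in *sim3-205* (0.66% of all genes) and 8 of 10 in *sim3-143* (0.497% of all genes). The *sim3-205* counts include *tf2-6* and *tf2-8*, which reach 3 data points only through their spots in grid 29. With the unrelated grids left out these have too few data points, and of the other 8 copies 5 passed 1.5-fold in *sim3-205* (1.72% of all genes) and 2 passed 2-fold (0.544%). In both alleles together 7 of 10 were past 1.5-fold, against 0.747% of all genes, and nothing is read from these shares because the same ratios chose the family. Just inside the 1.5-fold rule lay *tf2-2* in *sim3-205*, with 3 data points past it and a mean of 0.84, and *tf2-12* in *sim3-143*, with 3 and a mean of 0.83. Just outside it in *sim3-205* lay *Tf2-11*, with 2 data points and a mean of 0.62, and *tf2-12*, with 2 and a mean of 0.49. In *sim3-143* the copy outside it was *tf2-1*, far from the fold, with 0 data points past it and a mean of -0.45. The study itself listed *tf2-10* as higher past 2-fold in *sim3-205*, and reported no gene past 2-fold in *sim3-143*. Here *tf2-10* had 2 of 4 data points past 2-fold in *sim3-205* and 4 of 4 in *sim3-143*. The cause of this disagreement was not tested.

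The median log2 ratio over the 10 copies was 1.03 in *sim3-205* and 1.86 in *sim3-143*, against medians over all genes of 0.007 in *sim3-205* and -0.009 in *sim3-143*. By array it was 0.81 and 1.24 for *sim3-205*, and 1.67 and 2.03 for *sim3-143*. The array means for 9 of 10 copies were above wild-type on all 4 arrays, which was true of 11.5% of all genes, and *tf2-1* was the exception. Among the 4855 genes measured on *sim3-143* replicate 1, *tf2-5* ranked 4 and *tf2-10* ranked 5 by ratio. On *sim3-205* replicate 2, with 4853 genes, *tf2-8* ranked 12 and *tf2-6* ranked 21. On *sim3-205* replicate 1, where the spread over all genes was widest, *tf2-5* ranked 391.

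**Figure D3:**
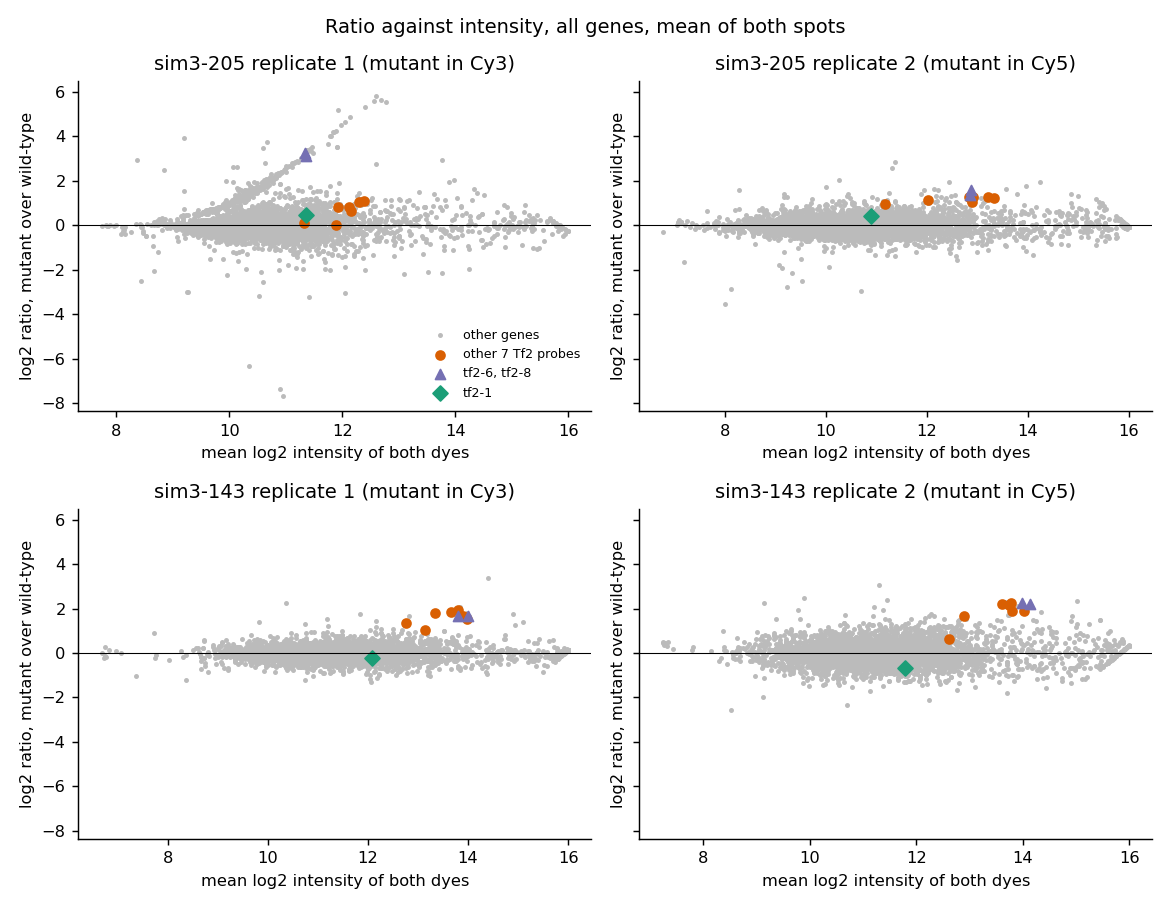
Log2 ratio of mutant over wild-type against the mean log2 intensity of both dyes for all genes (grey) and the Tf2 probes (coloured), as the mean of 2 spots, with 1 panel per array. Apart from *tf2-1* and *tf2-12*, Tf2 probes lie near the upper edge of the genes on both *sim3-143* arrays, where all-gene SDs were 0.31 and 0.50. On *sim3-205* replicate 1, *tf2-6* and *tf2-8* lie on a slanting band of points above the other genes.

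The order of the copies was compared between the 2 arrays of an allele. Across the 10 copies, Spearman's rho between replicates was 0.87 in *sim3-205* and 0.78 in *sim3-143*. Without *tf2-1* it was 0.88 in *sim3-205* and 0.70 in *sim3-143*. The values for *sim3-205* rank *tf2-6* and *tf2-8* by their spots in grid 29, and without these copies rho over the other 8 was 0.74. The copies share sequence and array, so these values describe the arrays and carry no p. In *sim3-143* the order of the means ran from *tf2-5* through *tf2-10*, *tf2-2*, *tf2-6*, *tf2-8*, *tf2-3*, *tf2-7* and *Tf2-11* to *tf2-12* and *tf2-1*. The means of the first 7 lay between 1.71 and 2.09, with SDs of 0.16 to 0.41, so neighbours among them did not differ beyond their spread. In *sim3-205* the means of *tf2-3*, *tf2-7*, *tf2-10*, *tf2-5* and *tf2-2* lay between 0.84 and 1.17. The 2-array means of *tf2-8* and *tf2-6*, 2.42 and 2.23, average in the spots of grid 29, and their place in this order rests on replicate 2 alone, at 1.59 and 1.35.

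Whether the alleles differ was tested with limma on all 4 arrays, since the choice of the family did not use that difference. At an adjusted p below 0.05, 0 of 10 copies were called for a difference between *sim3-205* and *sim3-143*. Over all 4857 genes limma called 0 (0%), and the smallest adjusted p was 0.707. At an unadjusted p below 0.05 there were 5 of 10 Tf2 probes and 247 genes in all, or 5.09%. The 5 were *tf2-1*, *tf2-2*, *tf2-3*, *tf2-5* and *tf2-10*, and as the probes share sequence they are not 5 separate results.

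The difference, *sim3-205* minus *sim3-143* on the log2 scale, was -1.13 for *tf2-2* (SE 0.27, 95% interval -1.82 to -0.45). It was -1.06 for *tf2-5* (interval -1.74 to -0.38) and -0.99 for *tf2-10* (interval -1.68 to -0.31). These estimates came with an adjusted p of 0.707 from limma. Of the rest, *tf2-3* and *tf2-7* gave -0.62 and -0.57, *Tf2-11* gave -0.89, and *tf2-12* gave -0.34 with an interval that runs up to 0.63. For *tf2-6* the estimate was 0.27 with an interval of -1.29 to 1.83, and for *tf2-8* it was 0.48 with an interval of -0.99 to 1.94, both too wide to place the alleles in an order. With the 3 unrelated grids left out these became -0.61 and -0.35, and 9 of 10 copies then had a lower estimate in *sim3-205*. The size of the differences rests in part on the dye normalization. The median over all spots was higher in the mutant dye on both *sim3-205* arrays and lower in it on both *sim3-143* arrays. Before normalization, with background subtracted, *tf2-5* gave 1.63 and 1.41 in *sim3-205*, and 1.80 and 1.75 in *sim3-143*. There *tf2-3* gave 1.92 and 1.37 in *sim3-205*, and 1.53 and 1.40 in *sim3-143*, so its alleles overlapped.

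The sign for *tf2-1* was the opposite. Its difference was 0.89 (SE 0.25, interval 0.26 to 1.53, limma adjusted p = 0.707). Arrays of like dye gave 0.68 with the mutant in Cy3 and 1.11 with it in Cy5. It was the copy with a higher ratio in *sim3-205* in both dye orientations, whereas 6 of 10 were lower in *sim3-205* in both. In a comparison of arrays with the mutant in Cy3, 7 of 10 were lower in *sim3-205*, and with the mutant in Cy5, 8 of 10. The shares of all genes with these directions were not counted, and the copies share sequence. Nothing is therefore read from the counts of copies by direction.

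**Figure D4:**
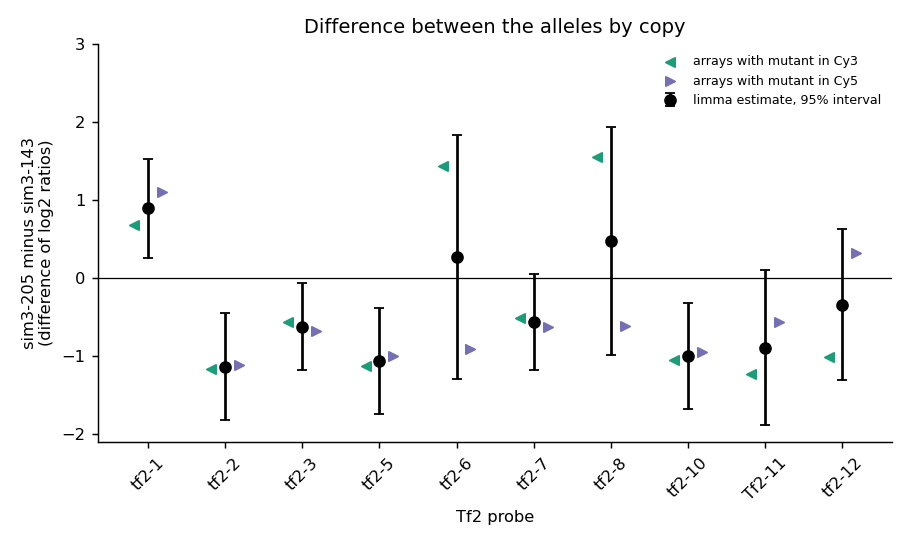
Difference between the alleles in log2 ratio, *sim3-205* minus *sim3-143*, for each Tf2 probe. Black points are limma estimates with 95% intervals, left triangles the difference of the 2 arrays with the mutant in Cy3 and right triangles that of the 2 arrays with it in Cy5. At *tf2-6* and *tf2-8* the triangles fall on opposite sides of 0, and at *tf2-1* both lie above 0, at 0.68 and 1.11.

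The call for the alleles rested on the arrays used. Without *sim3-205* replicate 2, limma called 2 copies, *Tf2-11* at -1.39 (adjusted p = 0.0386) and *tf2-2* at -1.34 (adjusted p = 0.0447), together with 309 genes in all, or 6.41%. Over 12 other settings the adjusted p from limma ran from 0.0386 to 0.998 for *Tf2-11* and from 0.0447 to 0.998 for *tf2-2*. In the fit without *sim3-205* replicate 2, the 1 remaining *sim3-205* array was assumed to vary like the *sim3-143* arrays. That array, replicate 1, had the widest spread over all genes, an SD of 0.66, and held the grids with unrelated dyes. *Tf2-11* stood at 0.12 on it and at 1.13 on replicate 2. An effect of the allele and a trait of this array cannot be told apart there.

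The dye was tested as a further term of the fit, which is the mean deviation of arrays with the mutant in Cy3 from the mean over both dye orientations. Limma called 0 of 10 Tf2 probes and 0 of 4820 genes (0%), with 470 genes and 0 Tf2 probes at an unadjusted p below 0.05. The term ran from -0.34 for *Tf2-11* to 0.30 for *tf2-6*. It was below 0 for 7 copies, whose ratios averaged higher on the arrays with the mutant in Cy5. *Tf2-11* averaged 0.73 with the mutant in Cy3 and 1.40 with it in Cy5, and *tf2-2* averaged 1.21 with it in Cy3 and 1.60 with it in Cy5. The 3 copies above 0 were *tf2-6* and *tf2-8*, measured in grid 29, and *tf2-1*, which averaged 0.12 with the mutant in Cy3 and -0.12 with it in Cy5.

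Other probes also read Tf2 genes. In all, 3 probes with systematic names belong to Tf2 genes in the gene table, SPAC19D5.09c to *Tf2-8*, SPBC1E8.04c to *Tf2-10* and SPCC1494.11c to *Tf2-13*. SPBC1E8.04c gave 0.38 and 1.21 on the *sim3-205* arrays, and 2.06 and 2.29 on the *sim3-143* arrays. The *tf2-10* probe, for the same gene, gave 0.81 and 1.25 on the *sim3-205* arrays, and 1.86 and 2.19 on the *sim3-143* arrays. SPAC19D5.09c, outside the unrelated grids, gave 0.46 and 1.14 on the *sim3-205* arrays, where the *tf2-8* probe gave 3.24 and 1.59. On the *sim3-143* arrays it gave 1.80 and 2.12, where the *tf2-8* probe gave 1.69 and 2.20. The 2 probes for this gene thus disagreed most on *sim3-205* replicate 1. SPCC1494.11c lies in grid 25, another of the unrelated grids, and gave 3.05 and 1.23 on the *sim3-205* arrays, and 1.65 and 1.69 on the *sim3-143* arrays.

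Outside the family, the genes whose 4 array ratios lay nearest to the Tf2 median were *nop14*, *ppk31*, SPCC663.08c, *cta3* and SPCC794.05c, at Euclidean distances from 0.387 for *nop14* to 1.01 for SPCC794.05c. *nop14* encodes a ribosome assembly factor, *ppk31* a protein kinase and *cta3* a cation-transporting ATPase. The ratio of *nop14* was 1.14 and 1.21 on the *sim3-205* arrays, and 1.76 and 1.85 on the *sim3-143* arrays. On the same measure the Tf2 copies themselves lay at 0.252 for *tf2-10* to 3.42 for *tf2-1*.

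Genes known to act on Tf2 elements were measured on the same arrays, with *sim3* itself added to the list. There were 22 probes for the genes of the list, and *pku80* was not matched. In *sim3-205* 0 of 22 passed 1.5-fold in either direction, against 3.2% of all genes, and in *sim3-143* 0 of 22, against 3.48%. Such counts are near the share of all genes. Their median was -0.03 in *sim3-205* and -0.06 in *sim3-143*. The CENP-B homologues *abp1*, *cbh1* and *cbh2*, which bind and silence Tf2, had means of -0.17, -0.10 and -0.03 in *sim3-205* and of -0.09, -0.03 and -0.17 in *sim3-143*. The HIRA subunits *hip1*, *slm9*, *hip3* and *hip4* lay between -0.02 and 0.18 in *sim3-205* and between 0.10 and 0.32 in *sim3-143*. For *sre1*, the activator in low oxygen, the values were 0.33 ± 0.02 in *sim3-205* and -0.04 ± 0.38 in *sim3-143* (SD, n = 2 each).

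Among histone deacetylases, *clr6* averaged -0.37 in *sim3-205* and -0.28 in *sim3-143*. The *clr3* probe averaged 0.70 ± 0.81 in *sim3-205* and 0.15 ± 0.23 in *sim3-143* (SD, n = 2 each). The highest of the list was the histone chaperone gene *asf1*, at 0.96 ± 0.86 in *sim3-205* and 0.52 ± 0.21 in *sim3-143*. Both *clr3* and *asf1* lie in grid 29, and on *sim3-205* replicate 2 alone they stood at 0.12 and 0.35. The lowest were *sap1* in *sim3-205*, at -0.73, and *nap1* in *sim3-143*, at -0.78. The *sim3* probe itself gave -0.13 ± 0.19 in *sim3-205* and 0.11 ± 0.21 in *sim3-143*. As both alleles are missense mutations, the level of sim3 mRNA does not check the labels.

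The wtf genes, a family of spore killers whose loci often hold Tf LTRs, gave 21 probes. Their median log2 ratio was 0.30 in *sim3-205* and 0.11 in *sim3-143*. Higher past 1.5-fold were 1 of 21 in *sim3-205*, against 2.6% of all genes, and 0 of 21 in *sim3-143*, against 2.09%, which is near those shares. The 1 was wtf-pseudo, at 1.63 ± 1.45 (SD, n = 2), with 2.66 in unrelated grid 21 on replicate 1 and 0.60 on replicate 2.

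**Figure D5:**
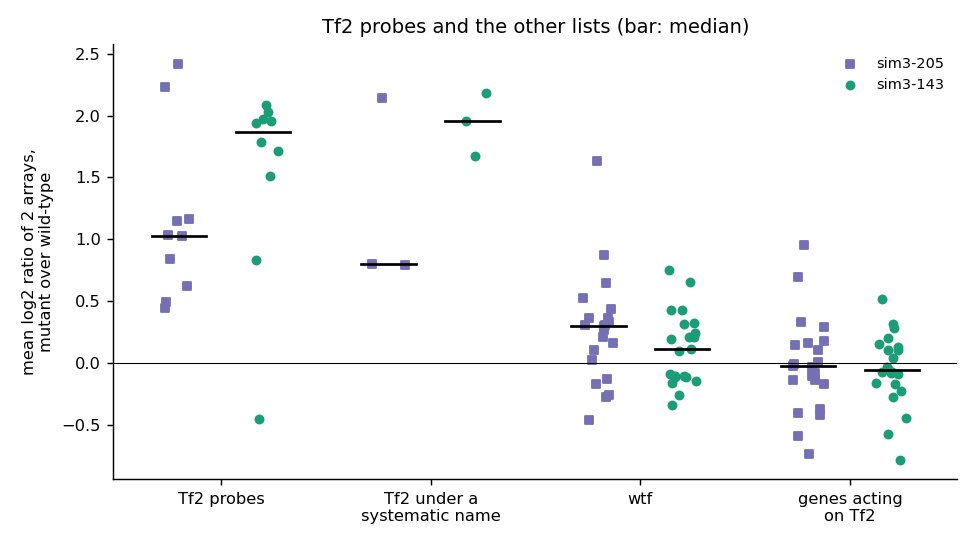
Mean log2 ratio of mutant over wild-type on 2 arrays, with 1 point per probe, for the Tf2 probes, Tf2 genes under a systematic name, wtf genes and genes known to act on Tf2. The last list also holds *sim3*. Squares are *sim3-205*, circles *sim3-143* and bars medians. Tf2 medians are 1.03 in *sim3-205* and 1.86 in *sim3-143*, and those of genes acting on Tf2 are -0.03 in *sim3-205* and -0.06 in *sim3-143*.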

How the data were processed

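Per array, the authors deposited raw scanner output, in which each spot has a median intensity and a local background per dye. They also deposited log2 ratios from GeneSpring, normalized with Lowess for each spot and chip. The image software is not given in the sources used here. Conditions and dyes came from the labels. The deposited log2 ratios were used as an alternative. Set against the scanner values by position they gave Spearman's rho of 0.913 to 0.993 and Pearson's r of 0.583 to 0.986, which settled their direction. At brighter spots with a log2 ratio past 1 here, the median quotient of deposited and present ratios was 0.996 to 1.03, which fits a log2 scale. Their column medians were 0.0029 and 0.0718 (*sim3-143* replicates 1 and 2), and -0.0634 and 0.0086 (*sim3-205* replicates 1 and 2). Their background treatment is unknown.

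In limma 3.58.1 under R 4.3.3, normexp with an offset of 50 corrected the background, loess with a span of 0.3 balanced the dyes of each spot file, and ratios were turned to mutant over wild-type. The offset draws the ratios of dim genes towards 0. Of 5070 names, 213 for controls, empty and missing products were left out, as were 73 spots of intensity 0 and 8 to 60 spots per array with certain image codes. Spots of a probe were averaged by array. Genes with at least 3 arrays entered 1 fit over both alleles (lmFit, eBayes), and a second fit added the dye. Adjusted p is Benjamini-Hochberg over all genes, with 0.05 as the threshold. The number of arrays limits the precision.

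The script was tested on simulated data. The members and all lists were chosen with earlier results of these data known. The text names all tf2- probes, other probes of retrotransposon genes, wtf genes, a list of genes that act on Tf2, and the 5 genes nearest to the Tf2 median. The list of genes that act on Tf2 also holds *sim3*. Gene names follow the files and a table of assembly ASM294v3. Alternatives were other background corrections and normalizations, the deposited values, names as written, filters on spots and grids, and arrays left out. Figures were drawn with Python 3.11.15 and matplotlib 3.10.9.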

Additional observations from a re-analysis of the deposited data

Results flagged for a closer look

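The copy *tf2-1* lay on opposite sides of wild-type in the alleles. Its log2 ratio over wild-type was 0.46 and 0.43 on the *sim3-205* arrays, and -0.22 and -0.68 on the *sim3-143* arrays, so both arrays of one allele lay above 0 and both of the other below it. The difference, *sim3-205* minus *sim3-143*, was 0.89, and limma did not call it (adjusted p = 0.707). Over 12 other settings the difference ran from 0.58 to 1.12, above 0 in 12 of 12, and limma did not call it in any. These settings reprocess or leave out parts of the same arrays, so the shared sign adds no support. The copy was also set against the others with earlier results of these data known.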

How the results depend on the processing

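Other background corrections, median centring, the filters on dim or coded spots and the omission of unrelated grids left the Tf2 medians within 1 SD of the arrays, and the counts past 1.5-fold within 1.5 times. With print-tip loess, 4 of 10 probes passed 1.5-fold in *sim3-205*, against 7. With gene names as written in the files, the Tf2 medians were 0.49 in *sim3-205* and 0.68 in *sim3-143*. Those names did not follow the printed spots on *sim3-205* replicate 1 and *sim3-143* replicate 2. The authors' deposited log2 ratios, read as placed, covered 2 Tf2 probes in both replicates. They gave medians of -0.33 in *sim3-205*, a reversed sign, and 0.28 in *sim3-143*, with 0 probes past 1.5-fold in each. As placed, these ratios had a Spearman's rho with the scanner values of 0.03 on *sim3-205* replicate 1 and 0.02 on *sim3-143* replicate 2. On those arrays they cannot be read as Tf2 values. Moved back to their spots they covered 5 probes, with medians of 0.77 in *sim3-205* and 1.35 in *sim3-143*, but only 1 probe in each allele had the 3 data points that the count needs, and 0 in *sim3-205* and 1 in *sim3-143* passed 1.5-fold, so these counts were set by missing values. The cause was not tested for the change with print-tip loess or for the medians of the deposited values moved back to their spots. When an array was left out, both spots of the remaining array of its allele had to pass the fold. The count of 6 without *sim3-205* replicate 2 includes *tf2-6* and *tf2-8*, measured there in grid 29. Leaving out arrays in turn gave medians of 0.81 to 1.24 and counts of 6 to 9 in *sim3-205*, and medians of 1.67 to 2.03 and counts of 8 to 9 in *sim3-143*. For the allele difference, the count of Tf2 calls was 0 to 2 in these fits, and the 2 came without *sim3-205* replicate 2. The dye term gave 0 Tf2 calls. With the dye as a coefficient, which pairs the arrays of like dye across the alleles, limma called 0 Tf2 probes for the allele difference. At an unadjusted p below 0.05 from that limma fit were 7 of 10 Tf2 probes and 477 of 4820 genes, or 9.9%. The fit left 1 residual degree of freedom. In 2 alternatives added after the data were seen, the median was 1.03 in *sim3-205* and 1.94 in *sim3-143* with the 3 systematic-name probes added, and 0.93 in *sim3-205* without *tf2-6* and *tf2-8*.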
